A study of Mus musculus with 9 samples.

Results

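The cytochrome P450 family 2 genes (Cyp2 genes) were examined in liver RNA-seq of mice fed a high-fat diet (HFD). Members were taken as all genes whose symbol was Cyp2 followed by a subfamily letter and a number, and they were grouped by that letter. The pattern named 47 of the 33211 genes in the table, and 35 of these had 10 or more counts in at least 4 of the 9 libraries. All 35 were among the 14220 genes that entered the test, and 31 of them had 10 or more counts in every library. The other 12 are given by name further on.

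The study asked how the temperature at which the diet was kept affects the mice. Male wild-type mice, C57BL/6 in the labels and C57BL6/J in the study's methods, 8 weeks old at the start, received the HFD for 7 weeks. After the package was opened, the diet had been kept at -20 °C in a freezer (HFDfre, n = 5) or at 4 °C in a fridge (HFDfri, n = 4), per the study's methods for 7 days before use. No group on a standard diet was part of the comparison, so both groups carry the effect of the HFD itself. The labels do not name the animal behind each liver library, and p-values measure the spread between these libraries.

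Enzymes of the CYP2 family sit in the membrane of the endoplasmic reticulum of hepatocytes, where they carry a heme group and receive electrons from the reductase encoded by Por. They hydroxylate or epoxidize drugs, pollutants, steroids, fatty acids and bile acids. In the mouse most members lie in tandem gene clusters of related copies, and many differ in level between male and female liver through the pulses of growth hormone. Several are induced through the nuclear receptors CAR (Nr1i3) and PXR (Nr1i2).

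The largest subfamily in the table was Cyp2c, with 15 genes on chromosome 19, of which 13 were tested. All but Cyp2c44 lay in a cluster from 39007019 to 40187333, and Cyp2c44 lay apart from it, at 44005022 to 44029208. Chromosome 7 held 15 members, which were the Cyp2a, Cyp2b, Cyp2e, Cyp2f, Cyp2g, Cyp2r, Cyp2s and Cyp2t genes. The 8 Cyp2d genes were on chromosome 15, the 7 Cyp2j genes on chromosome 4, Cyp2u1 on chromosome 3 and Cyp2w1 on chromosome 5. All 47 identifiers were found in GENCODE M21 (GRCm38), where each is a protein-coding gene, and Cyp2c44 carries the name Cyp2c23.

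The proximal promoters are shown first for the genes on which the description below turns. RefSeq promoters (GRCm38.p6) were matched for 40 of the 47 members, as 42 windows from 250 bases before to 50 after the start. None was matched for Cyp2c44, Cyp2c54, Cyp2d12, Cyp2d22, Cyp2d34, Cyp2g1 and Cyp2u1. For a set of Cyp2c genes the 200 bases before the start are printed 5′ to 3′ because they share a motif that is rare elsewhere. The capitals mark CAAAGTCCA, a sequence bound by the hepatocyte factor HNF4A and searched on both strands. The windows, all on the minus strand, were chr19:39649043-39649242 for Cyp2c67, chr19:39741102-39741301 for Cyp2c68, chr19:39812815-39813014 for Cyp2c40, chr19:39886770-39886969 for Cyp2c69 and chr19:40187287-40187486 for Cyp2c70.
Cyp2c67: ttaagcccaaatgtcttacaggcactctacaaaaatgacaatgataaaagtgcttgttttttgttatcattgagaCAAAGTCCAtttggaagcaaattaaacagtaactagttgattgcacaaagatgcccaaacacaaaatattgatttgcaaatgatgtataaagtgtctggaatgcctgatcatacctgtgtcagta
Cyp2c68: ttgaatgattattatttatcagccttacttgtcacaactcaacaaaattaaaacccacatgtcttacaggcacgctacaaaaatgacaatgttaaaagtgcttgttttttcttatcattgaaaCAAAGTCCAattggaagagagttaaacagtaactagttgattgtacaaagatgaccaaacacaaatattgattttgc
Cyp2c40: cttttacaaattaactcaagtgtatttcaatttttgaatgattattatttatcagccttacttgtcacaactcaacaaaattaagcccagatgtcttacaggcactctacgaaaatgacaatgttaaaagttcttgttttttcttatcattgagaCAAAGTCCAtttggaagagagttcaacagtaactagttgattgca
Cyp2c69: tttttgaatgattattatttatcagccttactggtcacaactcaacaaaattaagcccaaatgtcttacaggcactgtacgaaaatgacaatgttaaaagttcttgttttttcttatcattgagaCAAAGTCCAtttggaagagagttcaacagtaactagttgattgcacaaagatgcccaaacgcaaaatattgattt
Cyp2c70: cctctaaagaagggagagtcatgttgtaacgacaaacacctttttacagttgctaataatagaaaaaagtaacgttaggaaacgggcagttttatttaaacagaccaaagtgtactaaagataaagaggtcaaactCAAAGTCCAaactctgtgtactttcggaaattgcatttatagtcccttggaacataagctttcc

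CAAAGTCCA was found in 6 of the 42 member windows (14.3%), against 0.475% of the 32851 RefSeq promoter windows. The sixth gene was Cyp2c65, at 0 counts in every library. Counted from the start, the motif began at -125 in Cyp2c67, -116 in Cyp2c65, -77 in Cyp2c68, -75 in Cyp2c69, -64 in Cyp2c70 and -45 in Cyp2c40. TATAAA began at -40 in Cyp2c67, 10 in Cyp2c69 and 40 in Cyp2c40. In these genes the distance from the motif to TATAAA was the same, so their positions differ with the annotated start. The printed windows of Cyp2c40, Cyp2c67, Cyp2c68 and Cyp2c69 were 55.5% (Cyp2c40 and Cyp2c67) to 91.5% (Cyp2c68 and Cyp2c69) identical when aligned in pairs, so their matches are not independent. Identity was counted over the full window with gaps at the ends free, so windows with offset starts score lower. The window of Cyp2c70 scored 43% against Cyp2c68 but 1.5% to 3.5% against Cyp2c40, Cyp2c67 and Cyp2c69. These values are too uneven to measure how alike it is to them. In Cyp2c70 the motif followed a copy of AGGTCA, the core motif of nuclear receptors, which began at -74 and did not overlap it. A match is a stretch of letters and not a measured binding site.

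The promoters of Cyp2a4 and Cyp2a5 are printed because they are almost the same while the levels of the transcripts are not. The windows were chr7:26306992-26307191 for Cyp2a4 and chr7:26835139-26835338 for Cyp2a5, both on the plus strand and 98% identical. The capitals mark GTTAAT, a motif of the HNF1 factors, and the TATA box TATAAA.
Cyp2a4: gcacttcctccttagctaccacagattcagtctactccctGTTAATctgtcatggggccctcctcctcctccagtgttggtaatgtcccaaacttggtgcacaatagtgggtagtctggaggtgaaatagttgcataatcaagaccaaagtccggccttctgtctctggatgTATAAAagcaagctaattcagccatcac
Cyp2a5: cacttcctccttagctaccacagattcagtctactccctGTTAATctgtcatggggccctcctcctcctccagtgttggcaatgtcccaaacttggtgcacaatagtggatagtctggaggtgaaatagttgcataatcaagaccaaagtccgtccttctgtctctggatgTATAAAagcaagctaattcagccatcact

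TATAAA was present in 21 of the 42 member windows (50%) against 13.6% of all windows, AGGTCA in 13 (31%) against 16.3%, and GTTAAT in 6 (14.3%) against 7.1%. The STAT5 motif TTCNNNGAA was found in 2 (4.76%) against 8.3%, in Cyp2j11 and Cyp2j12, which had no counts. The PAR bZIP motif TTATGTAA and the C/EBP motif TTGCGCAA were found in 0 member windows, against 0.938% and 0.183% of all. No match says only that these letters are not in these windows. Both strands were searched for each motif.

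The libraries held from 58614917 to 69353439 counts, and Cyp2 genes took 1.27% to 1.68% of them in HFDfre and 1.32% to 1.6% in HFDfri. Levels below are CPM, the counts scaled to library size by the TMM method, and they are compared between genes only per kilobase of exon. HFDfri 1 held the highest level for 6 of the 35 members and the lowest for 10, HFDfri 4 the lowest for 10 and HFDfre 4 the highest for 8. A ribosomal RNA-like locus, Gm26924, took 0.466% to 11.1% of the counts, with no difference found between the groups (two-sided exact permutation p = 0.214, n = 5 and 4), and neither was one found in the totals (two-sided exact permutation p = 0.532, n = 5 and 4). The summed level of 6 hepatocyte markers ran from 87510 to 94008 CPM in HFDfre and from 77413 to 109118 CPM in HFDfri. All 5 lymphocyte markers were lower in HFDfri, with a summed level of 3.95 to 8.67 CPM in HFDfre and 3.65 to 4.67 CPM in HFDfri. The 4 Kupffer cell markers (47.0 to 108 CPM against 55.1 to 72.9 CPM) and 3 of the 5 stellate cell markers (38.4 to 62.9 CPM against 32.0 to 49.2 CPM) were also lower, while 3 of the 5 endothelial markers were higher and 3 of the 5 cholangiocyte markers lower. None of these markers had an adjusted p under 0.05 in edgeR's quasi-likelihood test (1.05% of all genes had). At an unadjusted p under 0.05 there were 4 of 6 in hepatocytes, 1 of 5 in cholangiocytes, 2 of 5 in stellate cells and 0 in the others. Of all genes, 21.2% were at that p. DESeq2 called 3, 1, 0 and 0 of these markers, against 6.71% of all genes. Their part in the results was not tested. The 5 markers of exocrine pancreas were at 0 in every library, those of fat and kidney tubule did not exceed 0.084 CPM, and of the lung markers Sftpa1 alone was tested, at 0.434 to 1.57 CPM. Of the intestinal markers Fabp2 was at 142 to 201 CPM in HFDfre and 94.1 to 148 CPM in HFDfri, while Lct was at 0 and Vil1 did not exceed 0.221 CPM.

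Per kilobase of exon, Cyp2e1 was far above the other members. It encodes the ethanol-oxidizing P450 of the hepatocytes around the central vein, and its mean over the 9 libraries was 3299 CPM per kilobase, 48.2% of the sum over the 35 members. Cyp2d26, Cyp2d10 and Cyp2d9 followed with 545, 505 and 392 CPM per kilobase, and Cyp2f2, a naphthalene-oxidizing enzyme, with 312. Of the 35 members, 15 had at least 100 CPM per kilobase, 21 at least 10 and 30 at least 1. The highest of each of the other subfamilies were Cyp2a5 with 206, Cyp2j5 with 193, Cyp2c50 with 161, Cyp2r1 with 3.53, Cyp2b9 with 3.09, Cyp2u1 with 1.39, Cyp2g1 with 0.21 and Cyp2s1 with 0.11 CPM per kilobase. Cyp2c50, Cyp2a12, Cyp2c70 and Cyp2c67 lay within 152 to 161 CPM per kilobase, and their order there is within the spread between libraries.

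**Figure D1:**
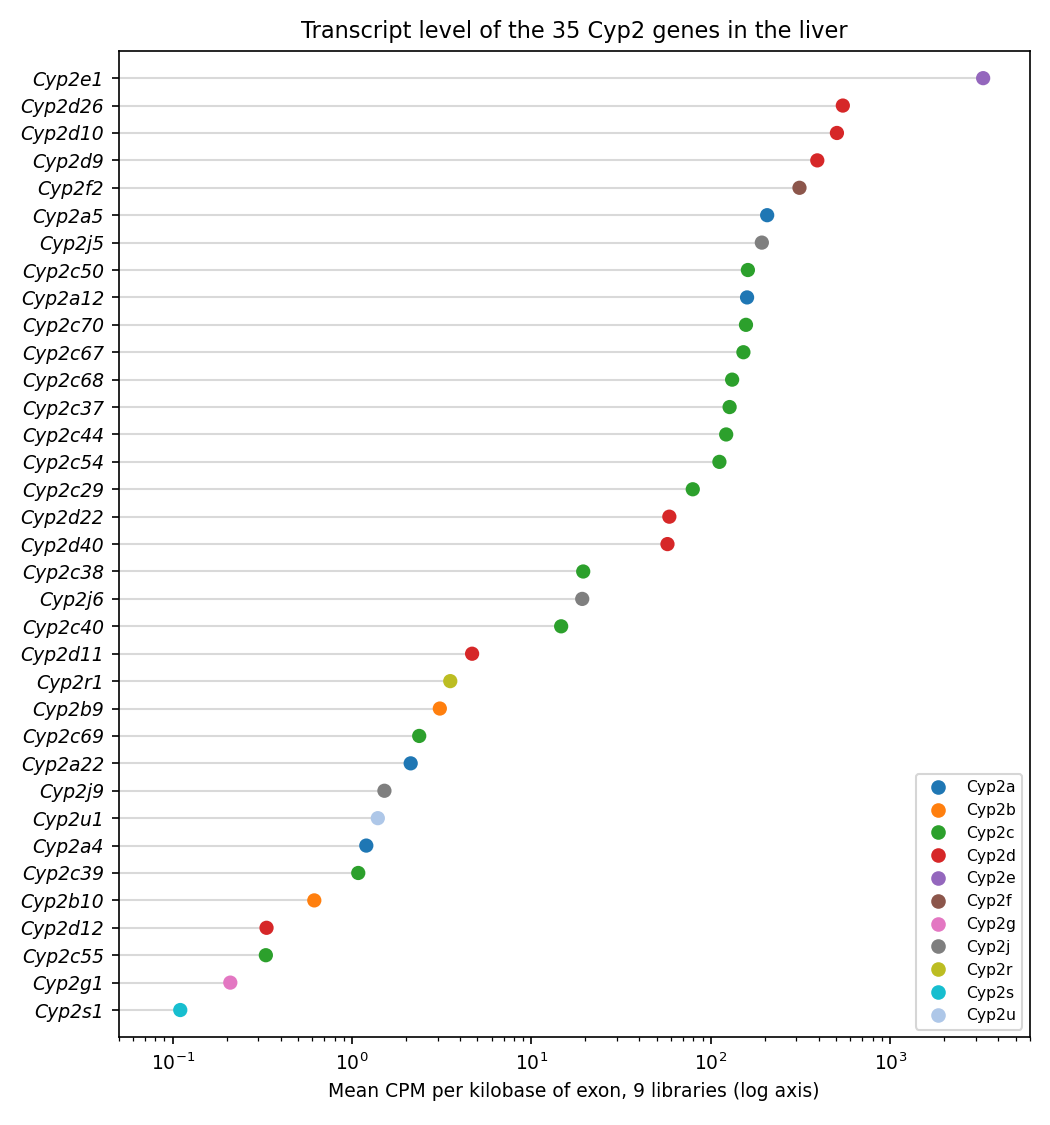
Mean level of the 35 Cyp2 genes over the 9 libraries, as CPM per kilobase of exon on a log axis, coloured by subfamily. Cyp2e1 at 3299 CPM per kilobase stands above the other 34 genes, and Cyp2s1 is lowest at 0.11.

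The fridge-kept diet was compared with the freezer-kept diet gene by gene, as HFDfri minus HFDfre, with edgeR's quasi-likelihood test adjusted over all 14220 genes. Of the 35 members, 3 had an adjusted p under 0.05 (8.57%), against 1.05% of all tested genes. Cyp2c38 and Cyp2a22 fell in HFDfri (0.556% of all genes were called lower), and Cyp2c70 rose (0.499% were called higher). At an unadjusted p under 0.05 there were 13 members (37.1%) against 21.2% of all genes, of which 5 were higher (11.4% of all genes) and 8 lower (9.79% of all genes). The libraries of the groups did not overlap for 7 members (20%), against 7.69% of all genes. The log2 fold change was above 0 for 13 members and below 0 for 22, with a median of -0.10 against -0.01 over all tested genes, and 18 members lay within 0.3 of 0. With scaling by library totals, Cyp2j6 was the member that changed sign, from -0.01 to 0.05. In bulk tissue, fewer cells of a type and less RNA per cell cannot be told apart. With DESeq2, which called 6.71% of all genes, 9 members were called. These were the same 3 with Cyp2a4, Cyp2a5, Cyp2b9, Cyp2c39, Cyp2d22 and Cyp2j9, all lower in HFDfri.

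**Figure D2:**
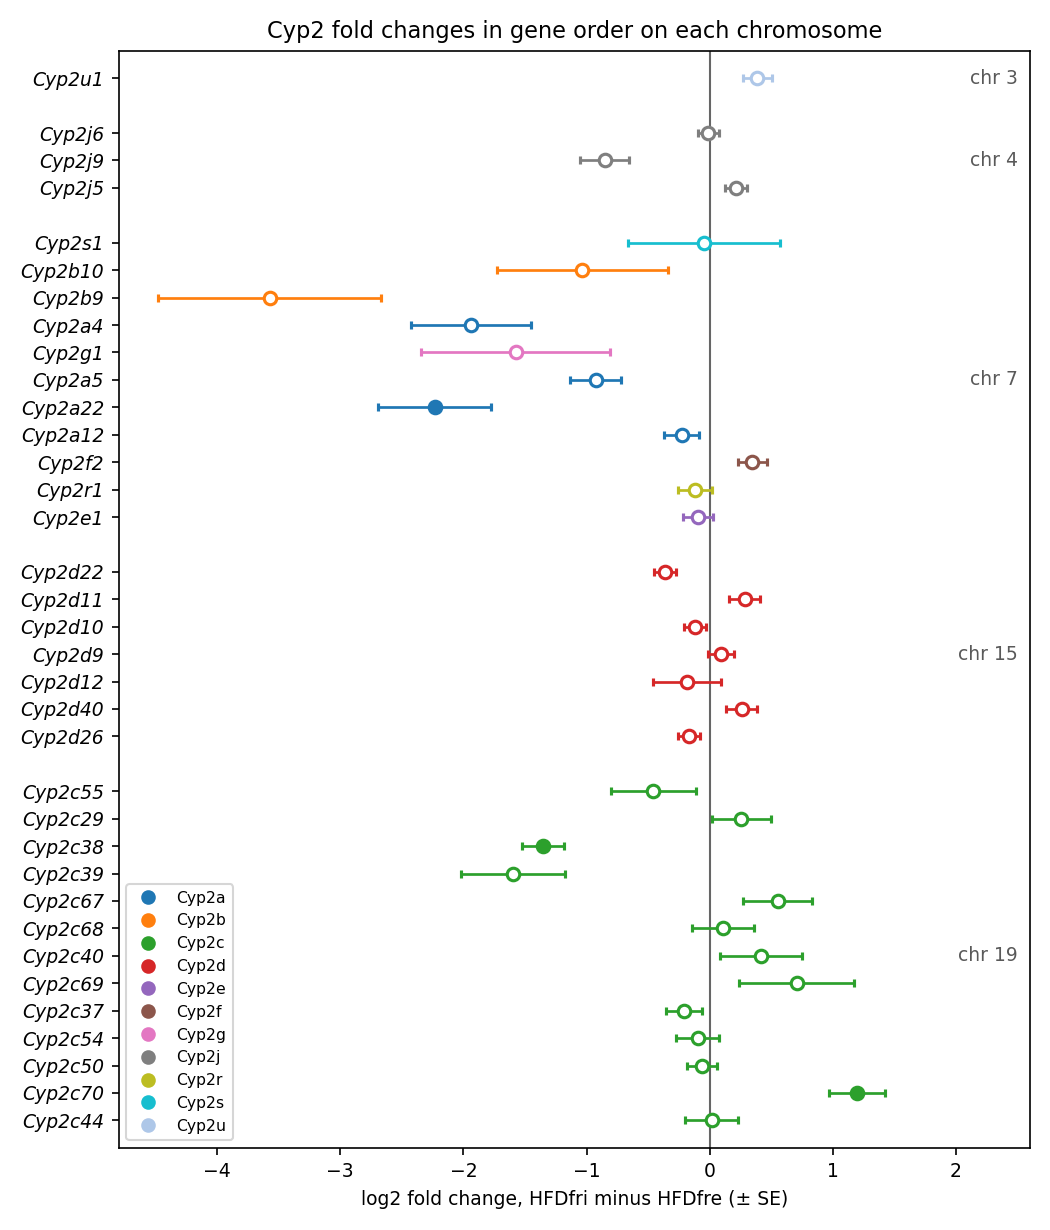
Log2 fold change (HFDfri minus HFDfre) ± SE of the 35 Cyp2 genes, in their order along chromosomes 3, 4, 7, 15 and 19, coloured by subfamily. Filled points mark the 3 genes with an adjusted p under 0.05 in edgeR's quasi-likelihood test, Cyp2c38, Cyp2a22 and Cyp2c70, and open points the others.

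The Cyp2c genes moved in different directions, also within their cluster. Of the 13 tested, 7 had a fold change above 0 and 6 below 0, with a median of 0.02, and the summed level of the subfamily was 2160 ± 306 CPM in HFDfre and 2477 ± 580 CPM in HFDfri (SD). An unadjusted p under 0.05 was found for 3 of the 13, Cyp2c38, its neighbour Cyp2c39 and Cyp2c70. That is near the share of all tested genes at that p, 21.2%.

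Cyp2c38 (ENSMUSG00000032808, chromosome 19, 39389556 to 39463075, minus strand) is an arachidonate-metabolizing member with higher levels in female liver. Its levels were 59.6, 60.2, 86.4, 93.7 and 82.4 CPM in HFDfre and 35.7, 33.8, 26.5 and 23.9 CPM in HFDfri. Every HFDfri library lay below every HFDfre library. The gene fell by 1.35 ± 0.17 on the log2 scale (SE; adjusted p = 0.0117, edgeR's quasi-likelihood test), which is 2.55-fold lower. The gene passed without any 1 of the 9 libraries, with a log2 fold change from -1.46 to -1.26. It did not pass within the 5 libraries with a Gm26924 share under 3%, at -1.44 (adjusted p = 0.109), nor with a replicate block (adjusted p = 0.131). Those 5 libraries were HFDfre 3 and 5 and HFDfri 1, 2 and 4. Of all genes, 0.0138% were called within them and 0% with the replicate block. A call lost in these 2 fits, here or for genes below, therefore says little about the single gene.

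Its neighbour Cyp2c39 (chromosome 19, 39510862 to 39568529, plus strand) encodes a retinoic acid hydroxylase, and its coding sequence is 94.22% identical to that of Cyp2c38. Its levels were low, at 2.46, 1.14, 3.75, 3.89 and 2.77 CPM in HFDfre and 0.41, 0.83, 0.787 and 1.68 CPM in HFDfri. The groups overlapped through HFDfre 2 and HFDfri 4. A log2 fold change of -1.60 ± 0.42 did not pass (adjusted p = 0.0811, edgeR's quasi-likelihood test). How reads shared by such copies were counted is not stated, so the split of counts between the pair is uncertain.

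Cyp2c70 (ENSMUSG00000060613, chromosome 19, 40153353 to 40187333, minus strand) makes the muricholic acids, the bile acids that set mouse bile apart from human bile. Its levels were 168, 256, 150.5, 161 and 253 CPM in HFDfre and 605, 292, 541 and 376 CPM in HFDfri. The lowest HFDfri library was above the highest HFDfre library. It rose by 1.20 ± 0.23 on the log2 scale (adjusted p = 0.0360, edgeR's quasi-likelihood test), or 2.29-fold. The call depended on single libraries, since it held without HFDfri 1 and without HFDfri 2 but not without any of the other 7, and the fold change then stayed between 1.02 and 1.36. It was 1.07 within the libraries of low Gm26924 share (adjusted p = 0.471), and the call was lost with a replicate block (adjusted p = 0.153), with the Gm26924 share as a covariate (adjusted p = 0.0729) and without a filter (adjusted p = 0.0504).

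The 4 Cyp2c genes that share the HNF4A motif with Cyp2c70 had their highest level in HFDfri 1. So did Cyp2c70 and also Cyp2c44, for which no promoter was matched. Cyp2c44 was at 378 CPM in HFDfri 1 and at most 317 CPM in the other libraries. Cyp2c40, which hydroxylates arachidonate, was at 23.4, 29.7, 26.6, 20.8 and 29.3 CPM in HFDfre and at 69.8, 19.2, 31.2 and 18.6 CPM in HFDfri. Cyp2c69, a close copy of Cyp2c67, was at 2.43, 3.72, 4.04, 2.33 and 3.23 CPM in HFDfre and at 12.7, 2.12, 3.58 and 2.24 CPM in HFDfri. In both genes HFDfri 1 exceeded all other libraries, while HFDfri 2 and HFDfri 4 lay below all of HFDfre.

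Neither Cyp2c40 (log2 fold change 0.42 ± 0.33, adjusted p = 0.504) nor Cyp2c69 (0.71 ± 0.47, adjusted p = 0.418) passed edgeR's quasi-likelihood test. Without HFDfri 1 their fold changes turned to -0.19 and -0.26. Cyp2c67 and Cyp2c68, described here after their values were seen, ran from 174 to 266 CPM and from 177 to 254 CPM in HFDfre. In HFDfri they ran from 171 to 552 CPM and from 152 to 395 CPM. The coding sequences of Cyp2c67 and Cyp2c69 are 97.69% identical and those of Cyp2c67 and Cyp2c68 97.15%, and the summed counts of the 3 genes gave a log2 fold change of 0.35 ± 0.27 (adjusted p = 0.491, edgeR's quasi-likelihood test).

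The other Cyp2c genes showed small differences. Cyp2c50, the highest of the subfamily per kilobase and an epoxygenase of arachidonate, was at 454, 546, 510.2, 404 and 479 CPM in HFDfre and at 493, 474, 504 and 363 CPM in HFDfri. The groups overlapped over nearly their whole range, and the log2 fold change was -0.06 ± 0.12 (adjusted p = 0.817, edgeR's quasi-likelihood test). The fold changes of Cyp2c29, Cyp2c37, Cyp2c44, Cyp2c54 and Cyp2c55 lay between -0.46 and 0.26, with adjusted p-values of 0.448 and above in the same test.

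**Figure D3:**
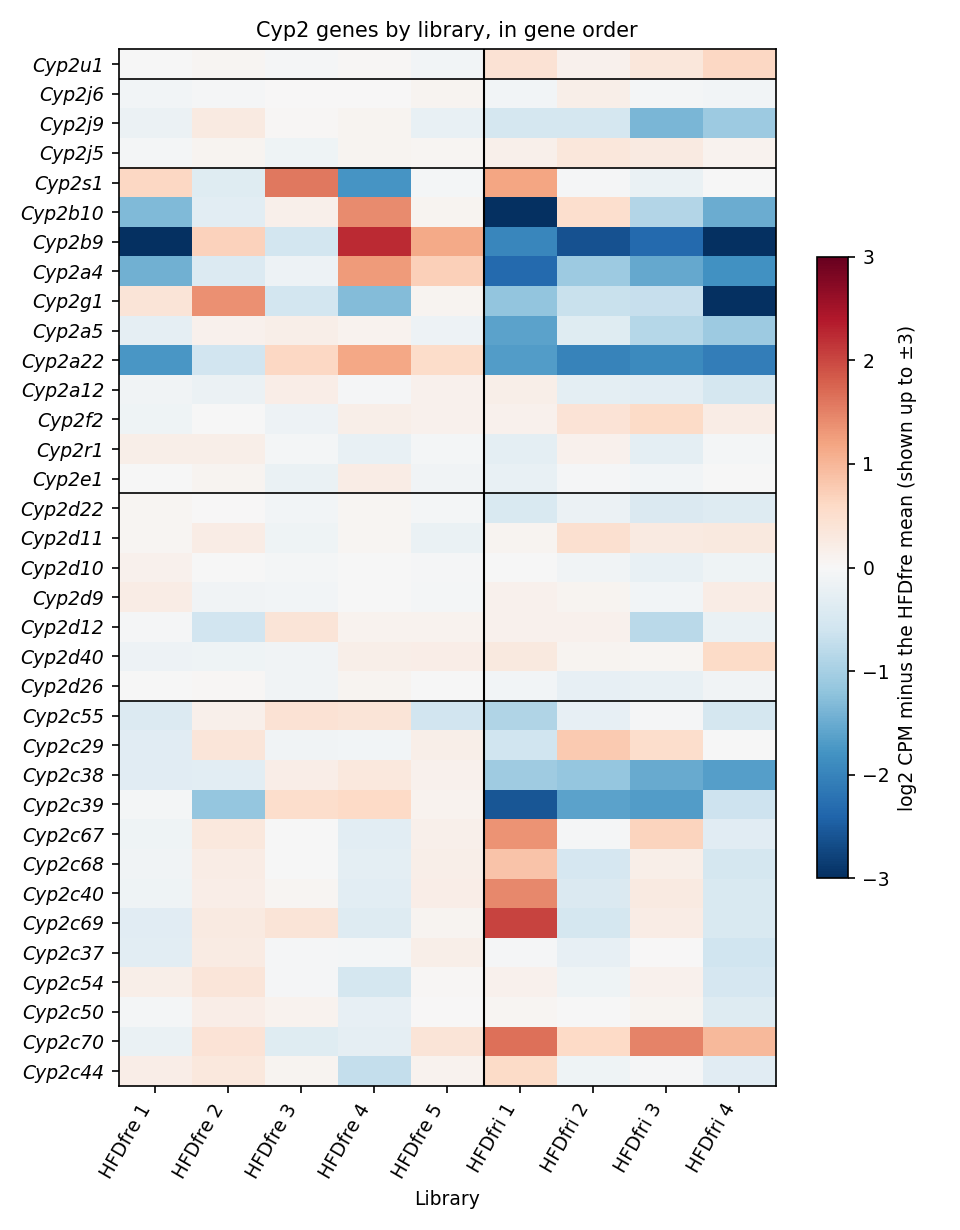
Log2 CPM of the 35 Cyp2 genes in each library minus the HFDfre mean, shown up to ±3, with genes in their order along each chromosome and lines between chromosomes. Cyp2c38 is low in all 4 HFDfri libraries and Cyp2c70 high, while Cyp2c67, Cyp2c68, Cyp2c40 and Cyp2c69 are high in HFDfri 1.

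All 4 Cyp2a genes had lower means in HFDfri (median fold change -1.43, log2). Of the 4, 3 had an unadjusted p under 0.05 (9.79% of all genes were lower at that p). Their summed level was 1145 ± 107 CPM in HFDfre and 791 ± 101 CPM in HFDfri (SD), and the highest HFDfri library, at 897 CPM, was below the lowest HFDfre library, at 994 CPM. Most of this sum was Cyp2a5 (means of 541 CPM in HFDfre and 285 CPM in HFDfri) and Cyp2a12 (589 and 503 CPM). Cyp2a12 overlapped between the groups.

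Cyp2a22 (ENSMUSG00000091867, chromosome 7, 26931631 to 26939384, minus strand) is a close copy of Cyp2a12, with 96.95% identity of the coding sequences. Its levels were 2.68, 6.1, 13.9, 20.3 and 13.2 CPM in HFDfre and 2.83, 2.24, 2.38 and 2.14 CPM in HFDfri. The HFDfri libraries were close together, whereas those of HFDfre were spread widely and HFDfre 1 lay among them. Cyp2a22 fell by 2.23 ± 0.46 on the log2 scale (adjusted p = 0.0467, edgeR's quasi-likelihood test), or 4.7-fold. The call held in 2 of the 9 fits that left out 1 library, those without HFDfre 1 and without HFDfri 1, and it was lost with limma-voom (adjusted p = 0.115), with robust dispersion (adjusted p = 0.0802), with scaling by library totals (adjusted p = 0.0571), without a filter (adjusted p = 0.0640) and with a replicate block (adjusted p = 0.180). Within the libraries of low Gm26924 share the log2 fold change was -2.50 (adjusted p = 0.0165), and the gene overlaps the pseudogene Cyp2a21-ps on the opposite strand.

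Cyp2a5 (chromosome 7, 26835305 to 26843548, plus strand), which hydroxylates coumarin and nicotine, was the most abundant of the subfamily. Its levels were 449, 591, 606, 578 and 482 CPM in HFDfre and 176, 417, 296 and 252 CPM in HFDfri. The groups did not overlap. Its log2 fold change of -0.92 ± 0.21 missed the threshold (adjusted p = 0.0566, edgeR's quasi-likelihood test), and it passed without HFDfri 1 (adjusted p = 0.0262), without HFDfri 2 (adjusted p = 0.0219) and with limma-voom (adjusted p = 0.0460).

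Cyp2a4 (chromosome 7, 26307169 to 26315088, plus strand), a testosterone hydroxylase that is higher in female liver, shares 98.45% of its coding sequence with Cyp2a5. Its levels were 0.924, 1.92, 2.31, 6.21 and 4.2 CPM in HFDfre and 0.481, 1.19, 0.855 and 0.707 CPM in HFDfri. HFDfre 4 and HFDfre 5 were highest, and HFDfre 1 lay within the range of HFDfri. Here the log2 fold change was -1.94 ± 0.49 (adjusted p = 0.0741, edgeR's quasi-likelihood test). With the counts of Cyp2a4 and Cyp2a5 summed it was -0.93 ± 0.21 (adjusted p = 0.0564), close to that of Cyp2a5, which holds most of the counts. Per kilobase Cyp2a5 was at 206 CPM and Cyp2a4 at 1.2 CPM, although the promoters printed above are 98% identical, and how reads were divided between the copies is not stated.

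Cyp2a12 is known to rehydroxylate secondary bile acids. It ran from 523 to 670.3 CPM in HFDfre and from 405 to 657 CPM in HFDfri, with a log2 fold change of -0.23 ± 0.14 (adjusted p = 0.383, edgeR's quasi-likelihood test). Without HFDfri 1, the highest library of its group, it was -0.40 and passed (adjusted p = 0.0498).

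The Cyp2b genes were low in these livers. Both tested members had lower means in HFDfri, and their summed level with the 3 untested ones ran from 0.963 to 28.9 CPM in HFDfre and from 0.592 to 2.81 CPM in HFDfri. Cyp2b9, a female-biased gene, was at 0.424, 8.47, 3.56, 24.9 and 11.4 CPM in HFDfre and at 1.32, 0.83, 1.02 and 0.115 CPM in HFDfri. It was above every HFDfri library in 4 of the 5 HFDfre libraries and below 3 of the 4 in HFDfre 1. With this spread, the log2 fold change of -3.57 ± 0.91 did not pass (adjusted p = 0.0758, edgeR's quasi-likelihood test). It passed without HFDfre 1 (adjusted p = 0.0450) and without HFDfri 1 (adjusted p = 0.0461).

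Cyp2b10 is the classical target of CAR, the receptor of phenobarbital-type inducers. Its levels were 0.539, 1.12, 1.54, 3.76 and 1.47 CPM in HFDfre and 0.0712, 1.98, 0.747 and 0.477 CPM in HFDfri. The groups overlapped, and the log2 fold change was -1.03 ± 0.70 (adjusted p = 0.425, edgeR's quasi-likelihood test). Of the untested members, Cyp2b13, which is 92.74% identical to Cyp2b9 in its coding sequence, had 0, 0, 4, 15 and 23 counts in HFDfre and 0 in each HFDfri library.

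Differences were small among the abundant Cyp2d genes. Of the 7 tested, 3 had a fold change above 0 and 4 below 0, and the summed level was 3261 ± 157 CPM in HFDfre and 3108 ± 183 CPM in HFDfri (SD). Cyp2d22, proposed as the mouse counterpart of human CYP2D6, was at 265, 259, 242, 265 and 245 CPM in HFDfre and at 185, 226, 187 and 194 CPM in HFDfri. The groups did not overlap, and the spread within HFDfre was narrow. At -0.36 ± 0.09 (log2), the difference missed the threshold (adjusted p = 0.0701, edgeR's quasi-likelihood test) and amounted to 1.29-fold. It passed without HFDfri 1 (adjusted p = 0.0409) and without HFDfri 2 (adjusted p = 0.0411).

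Cyp2d11 was at 6.99, 7.85, 6.18, 6.97 and 5.89 CPM in HFDfre and at 7.16, 9.42, 8.19 and 8.21 CPM in HFDfri. HFDfre 2 was above HFDfri 1, and the log2 fold change was 0.28 ± 0.13 (adjusted p = 0.227, edgeR's quasi-likelihood test). Cyp2d9 hydroxylates testosterone and is higher in male liver. It was at 1188, 947, 958, 1002 and 977 CPM in HFDfre and at 1107, 1073, 954 and 1182 CPM in HFDfri. The ranges nearly coincided, with a log2 fold change of 0.09 ± 0.11 (adjusted p = 0.671, edgeR's quasi-likelihood test).

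Cyp2d26, the highest Cyp2d gene per kilobase, was at 1014, 1054, 957, 1086 and 1020 CPM in HFDfre and at 965, 862, 879 and 947 CPM in HFDfri. The lowest HFDfre library lay just below the highest HFDfri library, and the log2 fold change was -0.17 ± 0.09 (adjusted p = 0.307, edgeR's quasi-likelihood test). Cyp2d10, Cyp2d12 and Cyp2d40 had fold changes between -0.18 and 0.26, with adjusted p-values of 0.268 and above in the same test.

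No difference beyond the spread was found for Cyp2e1 (chromosome 7, 140763739 to 140774987, plus strand). Its levels were 7250, 7701, 6323, 8552 and 6790 CPM in HFDfre and 6196, 7146, 6937 and 7178 CPM in HFDfri. The groups overlapped, and the log2 fold change was -0.09 ± 0.12 (adjusted p = 0.697, edgeR's quasi-likelihood test). Cyp2e1 took 42.5% to 53.3% of the Cyp2 counts of a library.

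Cyp2f2, which marks hepatocytes around the portal vein, was at 509.8, 554, 502, 637 and 618 CPM in HFDfre and at 617, 749.7, 842 and 659 CPM in HFDfri. HFDfri 1 lay just below HFDfre 4 and HFDfre 5, while the other 3 HFDfri libraries were above all of HFDfre. Its log2 fold change of 0.35 ± 0.12 did not pass (adjusted p = 0.138, edgeR's quasi-likelihood test). Of 10 genes of the pericentral zone outside the family, 8 had a lower mean in HFDfri (median -0.31, log2). Of 8 genes of the periportal zone it was 5 (median -0.07). With scaling by library totals, 3 pericentral and 4 periportal genes had a higher mean. Calls by edgeR's quasi-likelihood test and by limma-voom were 0 in either list, and DESeq2 called 1 of each (6.71% of all genes). At an unadjusted p under 0.05 there were 5 pericentral genes and 1 periportal gene, against 21.2% of all genes. Ornithine aminotransferase, Oat, a pericentral gene, was at 731 to 981 CPM in HFDfre and 573 to 651 CPM in HFDfri (adjusted p = 0.0723, edgeR's quasi-likelihood test). Lect2, a secreted liver protein, was at 134 to 175 CPM and 91.5 to 146 CPM (adjusted p = 0.120). Cps1, the entry enzyme of the urea cycle, was at 982 to 1489 CPM and 1345 to 2371 CPM (adjusted p = 0.0677).

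The Cyp2j genes encode P450 enzymes of which some, but not all, are known mainly as epoxygenases of arachidonate. Cyp2j5 was at 404, 442, 383, 443 and 436 CPM in HFDfre and at 467, 529, 509 and 452 CPM in HFDfri, with no overlap. The difference was small, at a log2 fold change of 0.21 ± 0.09 (adjusted p = 0.211, edgeR's quasi-likelihood test). Cyp2j9 was at 5.56, 7.6, 6.41, 6.59 and 5.39 CPM in HFDfre and at 4.33, 4.31, 2.39 and 2.95 CPM in HFDfri. It too had no overlap, in the other direction, and its log2 fold change of -0.85 ± 0.20 missed the threshold (adjusted p = 0.0589, edgeR's quasi-likelihood test), which it passed without HFDfri 1 (adjusted p = 0.0242) and without HFDfri 2 (adjusted p = 0.0475). Cyp2j6, between them in level, was at 69.5 ± 2.61 CPM in HFDfre and 68.9 ± 6.47 CPM in HFDfri (SD).

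Cyp2u1, a fatty acid hydroxylase, was at 6.41, 6.73, 6.27, 6.61 and 6.06 CPM in HFDfre and at 8.69, 6.98, 8.1 and 9.84 CPM in HFDfri. All HFDfri libraries were above all HFDfre libraries, by a log2 fold change of 0.39 ± 0.12 (adjusted p = 0.113, edgeR's quasi-likelihood test). The gene overlaps 4930534D22Rik on the opposite strand, and the use of strand in counting is not stated. Cyp2r1, the vitamin D hydroxylase of the liver, was at 8.68, 8.66, 7.42, 6.54 and 7.4 CPM in HFDfre and at 6.29, 8.48, 6.29 and 7.42 CPM in HFDfri. Here the groups overlapped, with a log2 fold change of -0.12 ± 0.14 (adjusted p = 0.653, edgeR's quasi-likelihood test).

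Cyp2g1 and Cyp2s1, known from the olfactory mucosa and from epithelia, were near the limit of detection. Cyp2g1 was at 0.693, 1.4, 0.352, 0.197 and 0.56 CPM in HFDfre and at 0.214, 0.318, 0.312 and 0 CPM in HFDfri (-1.58 ± 0.77, adjusted p = 0.266, edgeR's quasi-likelihood test). Cyp2s1 was at 0.655, 0.311, 1.3, 0.0983 and 0.392 CPM in HFDfre and at 0.979, 0.401, 0.353 and 0.411 CPM in HFDfri (-0.04 ± 0.62, adjusted p = 0.976, same test). Both overlapped between the groups. Of the 12 members that were not tested, Cyp2b19, Cyp2b23, Cyp2c65, Cyp2c66, Cyp2j11, Cyp2j12 and Cyp2w1 were at 0 in all libraries. The other 5 were Cyp2b13, Cyp2d34, Cyp2j8, Cyp2j13 and Cyp2t4, with at most 23 counts in a library.

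**Figure D4:**
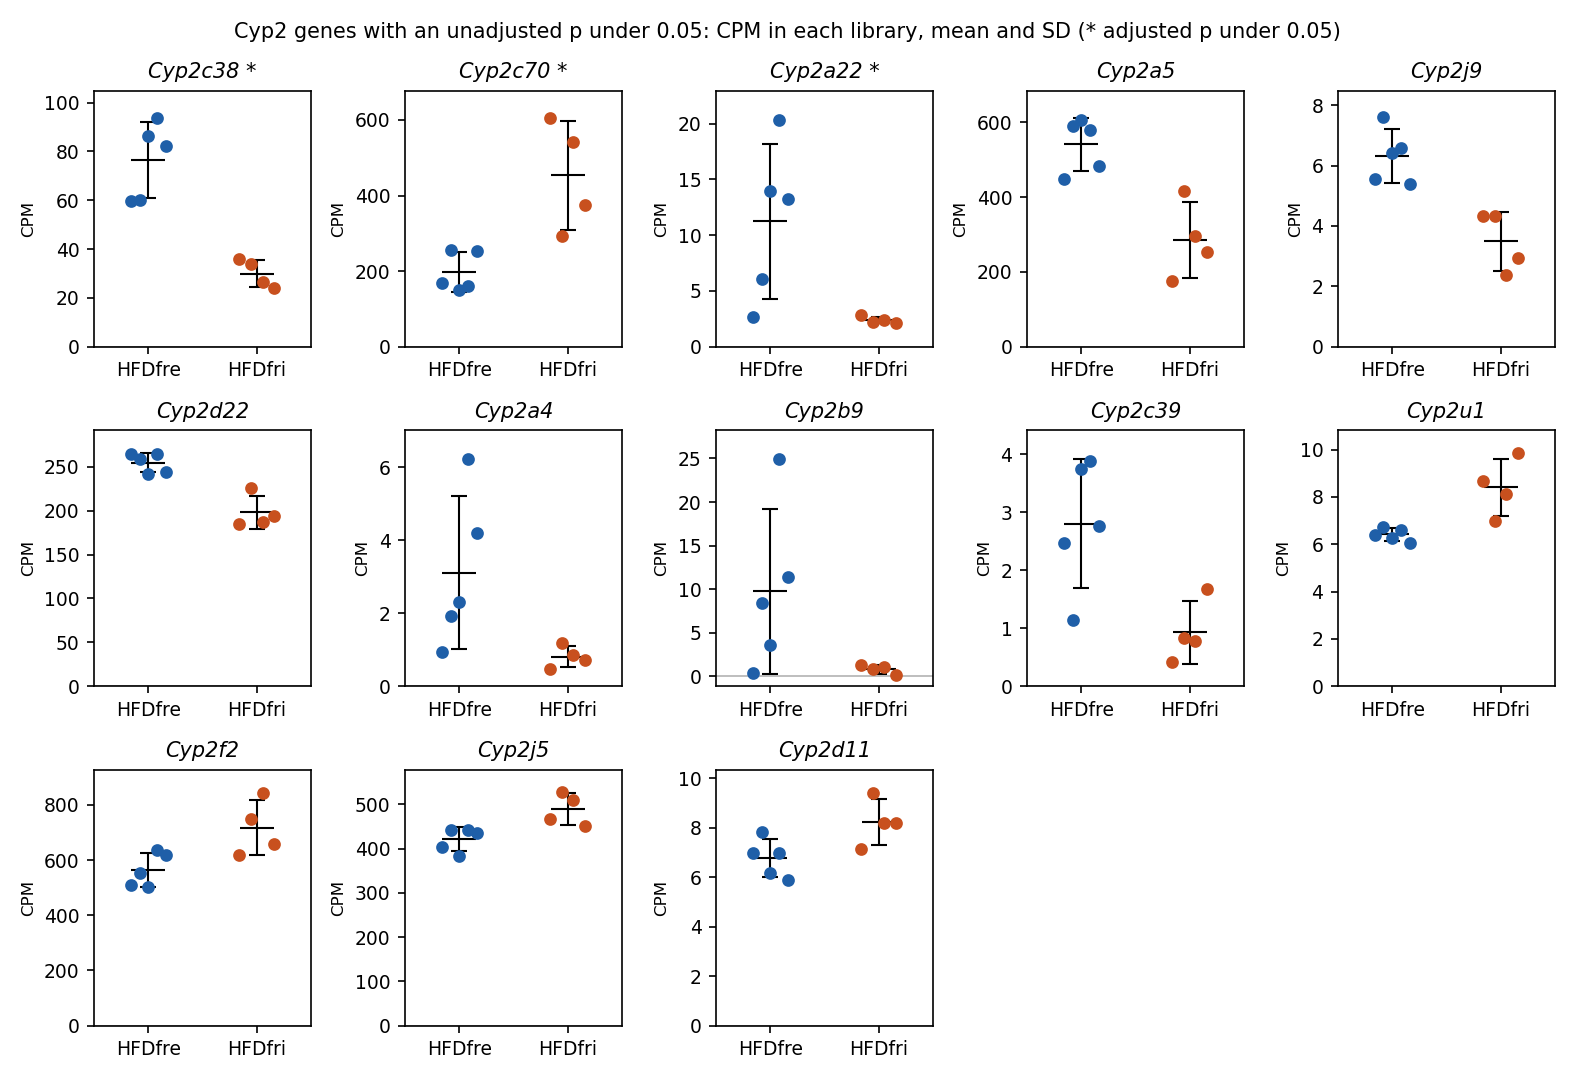
CPM in each HFDfre (blue, n = 5) and HFDfri (orange, n = 4) library for the 13 Cyp2 genes with an unadjusted p under 0.05, in order of p, with bars for the mean and SD and an asterisk for an adjusted p under 0.05. The groups are apart for Cyp2c38, Cyp2c70, Cyp2a5, Cyp2j9, Cyp2d22, Cyp2u1 and Cyp2j5 and overlap for the other 6.

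Members known to be higher in female liver were set beside sex-biased genes outside the family. Of 8 tested female-biased members, 6 had a fold change below 0, with a median of -1.46 (log2) against -0.01 over all genes, and 4 had an unadjusted p under 0.05, all lower (9.79% of all genes). Cyp2c38 was the 1 called by edgeR's quasi-likelihood test (0.556% of all genes were called lower) and by limma-voom, and DESeq2 called 4 (6.71% of all genes). The list is not independent of the description above, since it was written with earlier results of these data known. Its median and counts describe the listed genes only and depend on which members were listed. Cyp2c67 and Cyp2c68, near in sequence to the listed Cyp2c69, were not on it (0.55 ± 0.28 and 0.11 ± 0.25, log2). The summed level of the 9 listed ran from 90.5 to 156 CPM in HFDfre and from 47.7 to 121 CPM in HFDfri. The exceptions were Cyp2c40 and Cyp2c69, whose direction rested on HFDfri 1. Cyp2d9, the 1 listed male-biased member, was nearly unchanged (0.09 ± 0.11, adjusted p = 0.671, edgeR's quasi-likelihood test). Of 12 listed female-biased genes outside the family 6 were tested, and 4 of these had lower means in HFDfri. The 1 at an unadjusted p under 0.05 was Abcd2 (9.79% of all genes were lower at that p). The others were near the floor, with a highest group mean of 1.11 CPM, that of Ntrk2 in HFDfre. Of 10 male-biased genes outside the family 10 had higher means, 6 of them at an unadjusted p under 0.05 (11.4% of all genes were higher at that p). Of the 10, Cyp4a12a was nearly unchanged (0.01 ± 0.19, adjusted p = 0.975, edgeR's quasi-likelihood test). Moxd1 was at 0 in every HFDfre library, and Cspg5 stayed under 0.53 CPM.

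Among the sex-biased genes outside the family, 3 were called by edgeR's quasi-likelihood test, which called 1.05% of all genes. Cyp7b1, an oxysterol hydroxylase of the acidic pathway of bile acid synthesis, was at 80.9, 96.1, 82.2, 56.4 and 84.4 CPM in HFDfre and at 346, 119.8, 254 and 193 CPM in HFDfri (1.51 ± 0.25, adjusted p = 0.0293). Susd4, a complement regulator, was at 6.66, 9.81, 8.66, 8.65 and 6.41 CPM and at 13.0, 11.6, 17.9 and 17.3 CPM (0.89 ± 0.17, adjusted p = 0.0358). Abcd2, a peroxisomal fatty acid transporter, was at 15.3, 17.7, 17.6, 23.4 and 19.7 CPM and at 11.2, 12.0, 11.2 and 7.82 CPM (-0.83 ± 0.15, adjusted p = 0.0354). In all of them the groups did not overlap. These calls were lost within the libraries of low Gm26924 share (adjusted p = 0.425, 0.408 and 0.408), and in 6 of the 9 fits without 1 library. Those were the fits without HFDfre 3, 4 or 5 or HFDfri 3 or 4 for each, and without HFDfre 1 for Cyp7b1 and Susd4 or HFDfre 2 for Abcd2. HFDfri 1, which held the highest level of Cyp2c67, Cyp2c68, Cyp2c40, Cyp2c69, Cyp2c70 and Cyp2c44, also held the highest level of Cyp7b1.

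The growth hormone axis sets these sex differences. None of its 10 tested genes was called by edgeR's quasi-likelihood test, DESeq2 or limma-voom, and their median was -0.06 (log2). An unadjusted p under 0.05 was found for 1 of them, against 21.2% of all genes. Stat5b, its main transcription factor in the liver, was at 28.1, 26.6, 26.9, 29.1 and 29.9 CPM in HFDfre and at 30.2, 34.3, 30.1 and 31.4 CPM in HFDfri (0.16 ± 0.08, adjusted p = 0.283, edgeR's quasi-likelihood test), a narrow gap without overlap. Cux2, a repressor expressed in female liver, did not exceed 1.21 CPM in HFDfre and 0.303 CPM in HFDfri, and 2 of the HFDfri libraries were at 0 (adjusted p = 0.198, edgeR's quasi-likelihood test). It was the gene at an unadjusted p under 0.05.

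Of the 12 nuclear receptors and related sensors tested, 6 had higher and 6 lower means in HFDfri (7 were higher with scaling by library totals). At an unadjusted p under 0.05 there were 5, against 21.2% of all genes. By edgeR's quasi-likelihood test 1 was called, by limma-voom 1 and by DESeq2 3 (1.05%, 1.04% and 6.71% of all genes). Nr1i3, which encodes CAR, fell in HFDfri. Its levels were 419.9, 630.1, 593, 486 and 446 CPM in HFDfre and 212, 273, 262 and 346 CPM in HFDfri. The groups did not overlap, and the log2 fold change was -0.92 ± 0.16 (adjusted p = 0.0333, edgeR's quasi-likelihood test), or 1.89-fold. The call was lost with scaling by library totals (adjusted p = 0.0680), within the libraries of low Gm26924 share (adjusted p = 0.408), and without any of HFDfre 2, 3, 4 and 5 and HFDfri 3 (adjusted p from 0.0509 to 0.0965). Nr1i2, which encodes PXR, was at 64.7, 63.5, 67.8, 86.6 and 67.0 CPM in HFDfre and at 57.7, 70.1, 61.5 and 71.1 CPM in HFDfri (-0.10 ± 0.11, adjusted p = 0.634).

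Of 12 liver-enriched transcription factors, 5 had higher and 7 lower means (6 were higher with scaling by library totals). At an unadjusted p under 0.05 there were 7, against 21.2% of all genes. By edgeR's quasi-likelihood test 1 was called, by limma-voom 1 and by DESeq2 4 (1.05%, 1.04% and 6.71% of all genes). Dbp, the clock-controlled PAR bZIP factor known to drive Cyp2a4 and Cyp2a5, fell from 98.9, 85.0, 84.0, 71.0 and 72.9 CPM in HFDfre to 52.7, 54.9, 41.0 and 41.0 CPM in HFDfri. The groups did not overlap (-0.80 ± 0.13, adjusted p = 0.0293, edgeR's quasi-likelihood test). The call was lost within the libraries of low Gm26924 share (-0.67, adjusted p = 0.408) and without any of HFDfre 3, HFDfre 5, HFDfri 3 and HFDfri 4 (adjusted p from 0.0636 to 0.0887). The times at which the livers were taken were not given in the sources used here. Hnf4a was at 302, 321, 312, 356 and 343 CPM in HFDfre and at 489, 402, 509 and 399.6 CPM in HFDfri. It did not overlap either, and at 0.46 ± 0.10 it missed the threshold (adjusted p = 0.0566, edgeR's quasi-likelihood test). Whether any of these regulators bears on the member genes was not tested.

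The partners of the P450 enzymes differed little. Por, the electron donor of all members, was at 363, 327, 275, 503 and 345 CPM in HFDfre and at 309.7, 322, 427 and 497 CPM in HFDfri. Its groups overlapped (0.10 ± 0.18, adjusted p = 0.798, edgeR's quasi-likelihood test). Pgrmc1, a heme-binding partner of P450 enzymes, was at 842 to 1073 CPM in HFDfre and 748 to 878 CPM in HFDfri (adjusted p = 0.216). None of the 4 tested genes of this list was called by edgeR, DESeq2 or limma-voom. Pgrmc1 was the 1 gene at an unadjusted p under 0.05, against 21.2% of all genes.

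Of 8 heme synthesis genes 0 were called by edgeR's quasi-likelihood test, 2 by DESeq2 (6.71% of all genes) and 0 by limma-voom. Lower means in HFDfri were found for 5 (median -0.14, log2). At an unadjusted p under 0.05 there were 4, 1 higher and 3 lower, against 21.2% of all genes. Alas1, the rate-limiting enzyme, ran from 388 to 802 CPM in HFDfre and from 371 to 539.8 CPM in HFDfri, with overlap (adjusted p = 0.390). Alad, the next enzyme, was at 139, 115, 116, 123 and 121 CPM in HFDfre and at 105, 88.0, 76.1 and 97.8 CPM in HFDfri, without overlap (-0.42 ± 0.11, adjusted p = 0.0758). Ppox, which makes protoporphyrin, was at 17.2 to 21.6 CPM and at 13.4 to 17.0 CPM (adjusted p = 0.0936).

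The 4 heme breakdown genes and the epoxide hydrolases, which act on the products of epoxygenases, held 0 calls as well in edgeR's quasi-likelihood test and limma-voom. At an unadjusted p under 0.05 there were 2 and 1, against 21.2% of all genes, and DESeq2 called 1 of each, against 6.71%. Blvrb, a biliverdin reductase, was at 81.6 to 111 CPM in HFDfre and at 64.1 to 80.0 CPM in HFDfri (adjusted p = 0.0620, edgeR's quasi-likelihood test). Hmox2, the constitutive heme oxygenase, was at 26.3 to 32.5 CPM and at 33.6 to 38.5 CPM (adjusted p = 0.140). Ephx1, the microsomal epoxide hydrolase, was at 189.9, 172, 261, 241 and 208 CPM in HFDfre and at 119.7, 156, 133 and 170.5 CPM in HFDfri, a log2 fold change of -0.57 ± 0.14 (adjusted p = 0.0741). Its groups did not overlap.

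**Figure D5:**
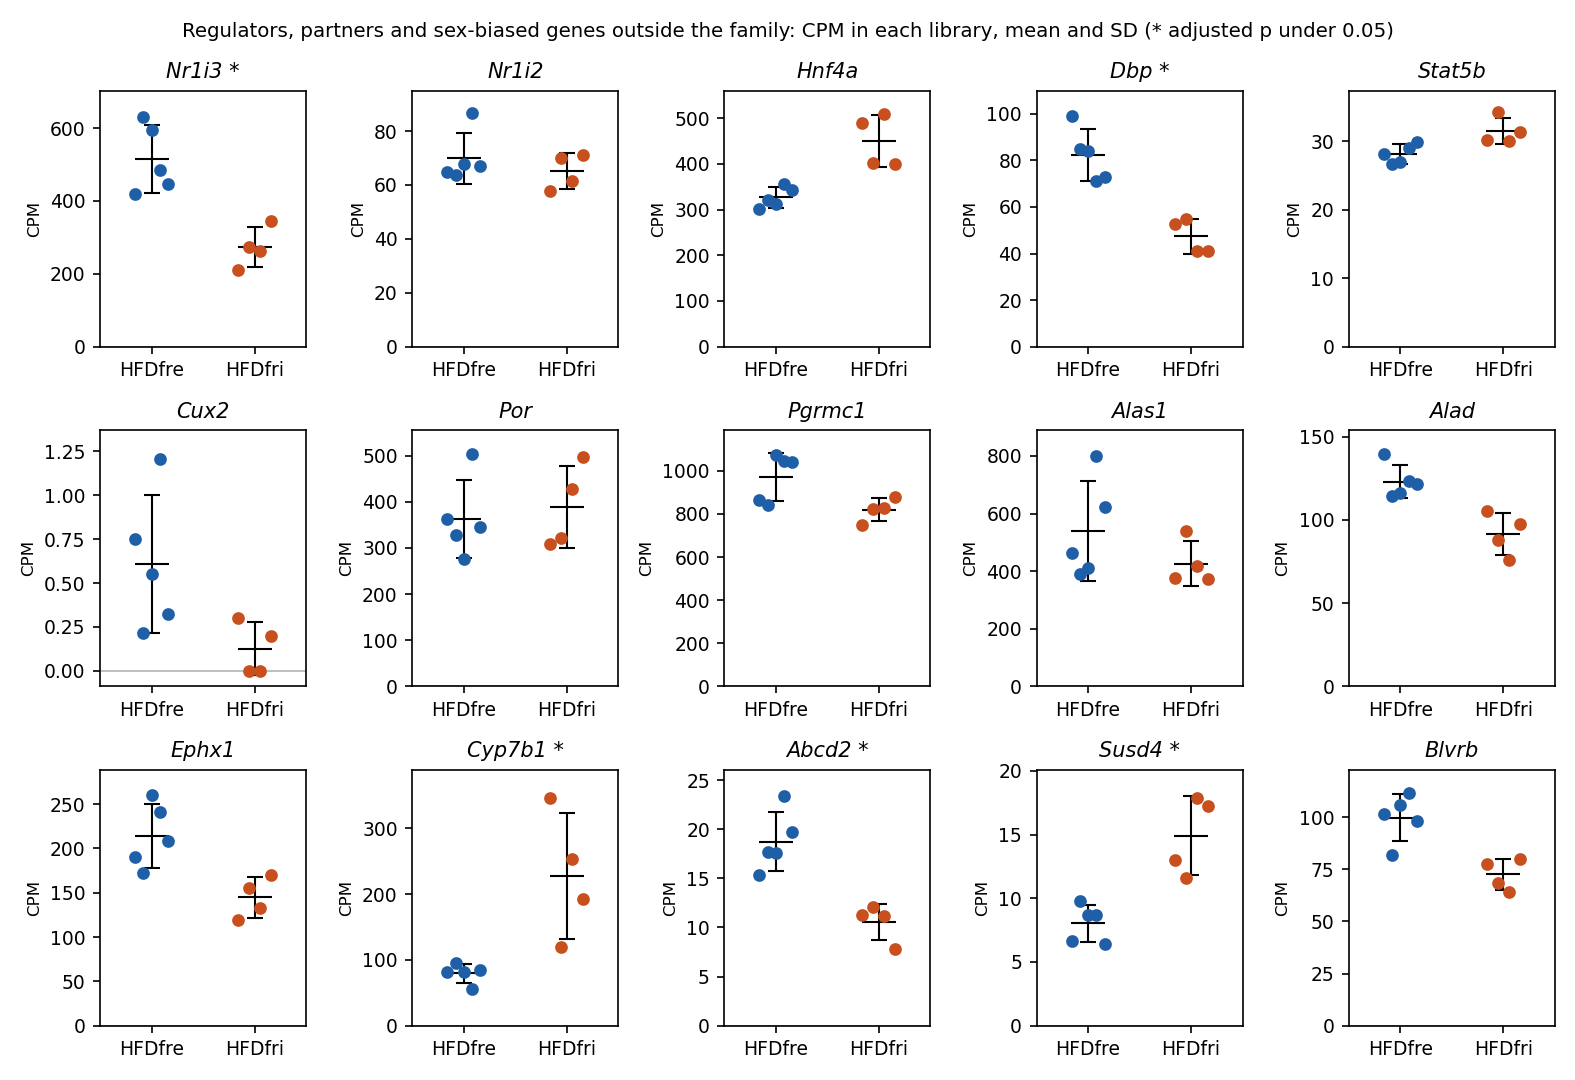
CPM in each HFDfre (blue, n = 5) and HFDfri (orange, n = 4) library for regulators and partners of the Cyp2 genes and for sex-biased genes outside the family, with bars for the mean and SD. An asterisk marks the genes with an adjusted p under 0.05, which are Nr1i3, Dbp and Abcd2, lower in HFDfri, and Cyp7b1 and Susd4, higher in HFDfri.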

How the data were processed

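RNA-seq libraries were made from TRIzol-extracted liver RNA. The labels name the NEBNext Ultra kit and the study's methods the KAPA HyperPrep kit, and which was used was not settled here. The submitters' processing notes name HISAT2, StringTie and mm10, without versions. The annotation, the use of strand and the counting of reads shared between copies are not given in the sources used here. The values the authors deposited are estimated counts per gene, not scaled between libraries. They were already whole numbers and were read as such.

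Counts were compared as HFDfri minus HFDfre by fitting a quasi-likelihood model (edgeR 4.0.16, R 4.3.3). TMM factors were used, filterByExpr kept 14220 genes, and p-values were adjusted by Benjamini-Hochberg over all of them. Standard errors are the absolute log2 fold change over the root of its F statistic. Deviations in log2 CPM used a prior count of 2. Gene lengths are the joined exons of GENCODE M21, which held 96.5% of the identifiers. Alternatives were DESeq2 1.42.0, limma-voom (limma 3.58.1), other scalings and filters, robust dispersion, a replicate block, the share of Gm26924 as a covariate, as a batch term at 3% and within the libraries below it, each library left out, and summed counts of members with 95% or more protein identity. The study used DESeq2. Group differences of single measures were tested by two-sided exact permutation, for which the smallest p is 0.00794. The scripts were tested on simulated data.

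Members with an adjusted p under 0.05, those with an unadjusted p under 0.05, the highest of each subfamily per kilobase and the sex-biased members are given by library. Of each pathway list, the called genes are named, or otherwise up to 2 with the smallest unadjusted p under 0.05, with Nr1i3, Nr1i2, Por, Alas1, Hnf4a and Stat5b in any case. The members, the lists and the rules were chosen with earlier results of these data known.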

Additional observations from a re-analysis of the deposited data

Results flagged for a closer look

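In 4 of the 106 sets of libraries tested, 1 library stood apart from the rest of its group by Dixon's test on log2 CPM, where chance alone would mark about 1 in 20, or 5.3. Cyp2g1 stood apart in HFDfri (a gap of 0.854 of the range), since HFDfri 4 was at 0 counts, or -5.03, and the others lay between -2.03 and -1.52. Cyp2s1 also stood apart in HFDfri (0.854), with HFDfri 1 at 0.0143 and the others between -1.38 and -1.18. Cyp2d9 stood apart in HFDfre (0.752), with HFDfre 1 at 10.2 and the others between 9.89 and 9.97. Outside the family, Nr1i2 stood apart in HFDfre (0.791), with HFDfre 4 at 6.44 and the others between 5.99 and 6.08.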

How the results depend on the processing

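The number of members called was 3 and stayed at 2 or 3 with limma-voom, both other scalings, the filter of 10 counts in 4 libraries, robust dispersion, the Gm26924 covariate and batch term, and summed near-identical members. Apart from the summed fit, these called from 0.267% (covariate) to 3.38% (batch term) of all genes. The number of members was 9 with DESeq2, where 6.71% of all genes were called, 1 without a filter (0.364%) and 1 within the libraries of low Gm26924 share (0.0138%). With the replicate block it was 0, where 0 of all genes were called. There 12 members had an unadjusted p under 0.05, against 17.8% of all genes. The numbers do not pair the libraries (correlations of same-numbered libraries from -0.136 to 0.0813). Leaving out 1 library gave 1 to 8 members. There were 8 without HFDfri 1 (7.65% of all genes), 5 without HFDfri 2 (1.63%) and 3 without HFDfre 1 (0.277%). Without any other library there was 1 member, where 0.0426% to 0.363% of all genes were called. The main fit called 1.05% of all genes, so these lower numbers are not particular to the members. The 13 members with an unadjusted p under 0.05 became 9 to 16. The share of all genes at that p was 21.2% in the main fit. It ran from 9.67% within the libraries of low Gm26924 share to 25.7% without HFDfri 1. Directions turned within the error. Cyp2e1 was at 0.0558 within the libraries of low Gm26924 share, and Cyp2s1 at 0.28 with limma-voom and 0.23 with the replicate block. Without 1 library, Cyp2c50 ran from -0.12 to 0.035, Cyp2s1 from -0.51 to 0.56, Cyp2c40 from -0.19 to 0.62, Cyp2c69 from -0.26 to 0.97, Cyp2c68 from -0.27 to 0.27, Cyp2c44 from -0.22 to 0.13, Cyp2c54 from -0.21 to 0.021, Cyp2j6 from -0.081 to 0.013 and Por from -0.0396 to 0.25. The cause was not tested, and the fits without a library also rest on fewer libraries. The libraries above the Gm26924 share of 3% include 1 of HFDfri and gave no fit of their own. Depth limits the members under 1 CPM, where counting error is large.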
